A study of Mus musculus with 6 samples.

Results

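Reelin (Reln), its receptors Vldlr and Lrp8, the adaptor Dab1, the chemokine Cxcl12 and its receptor Cxcr4 are signals and receptors that guide the migration of young neurons. The 6 genes, of 18193 that the array's annotation names, were taken by exact gene symbol, which gave 20 probe sets of the 45037 on the array other than controls. RNA was measured in 2 sorted groups of cells of the ventral mesencephalon, taken from mouse embryos at day 12.5, with 3 arrays per group. The first group, called positive here, held GFP-positive cells of the Ngn2-GFP reporter line in CD1/129 mice, labelled as midbrain dopaminergic progenitors. The second, called negative here, held GFP-negative cells of the Lmx1a-GFP reporter line in C57BL/6 mice, labelled as a non-dopaminergic progenitor population. Both groups carried a GFP reporter, and nothing in the labels gives a further allele or a treatment. Strain, reporter line and sort gate differed together between the groups, so their parts in any difference cannot be told apart.

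Reelin is a large secreted glycoprotein. It binds Vldlr and Lrp8 (also called ApoER2) on migrating neurons, and Src family kinases then phosphorylate Dab1, which binds the inner tails of both receptors. In the ventral midbrain, dopaminergic neurons first move away from the ventricle and then sideways toward the substantia nigra, and mice that lack Reelin or Dab1 have misplaced nigral neurons. Cxcl12 is a chemokine made in large part by the meninges, and it acts on migrating cells through Cxcr4, a receptor coupled to G proteins. Ackr3, a second receptor for Cxcl12, takes up and clears the chemokine.

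None of the 5 genes that could be tested (Reln, Dab1, Vldlr, Lrp8 and Cxcr4) passed the threshold, an adjusted p of 0.05 over 12044 tested genes with limma. Reln was the lowest in positive cells, by 0.94 on the log2 scale, and Lrp8 the highest, at 0.63. Cxcl12 lay near or below the background of the array in both groups and was not tested. The result that moved most with the arrays was Reln, whose lower level was carried by positive replicates 1 and 2, and the next was Cxcr4, which was high on positive replicate 3 alone.

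In the comparison of the groups, 1.06% of all tested genes passed the threshold and 10.8% had an unadjusted p under 0.05. Of the 5 tested members 0 passed, and 2 (Reln and Lrp8) had an unadjusted p under 0.05. The groups did not overlap for 2 members, Lrp8 with all positive arrays above and Dab1 with all positive arrays below, against 15.5% of all tested genes, 8.21% with all positive arrays above and 7.25% below. Of the 20 probe sets 17 passed the filter on low signals, and 3 of these 17 had an unadjusted p under 0.05, against 9.43% of all 27738 tested probe sets. The groups did not overlap for 5 of the 17, against 13.9% of all tested probe sets. Among all tested probe sets 0.537% passed an adjusted p of 0.05, and no probe set of these genes did.

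**Figure D1:**
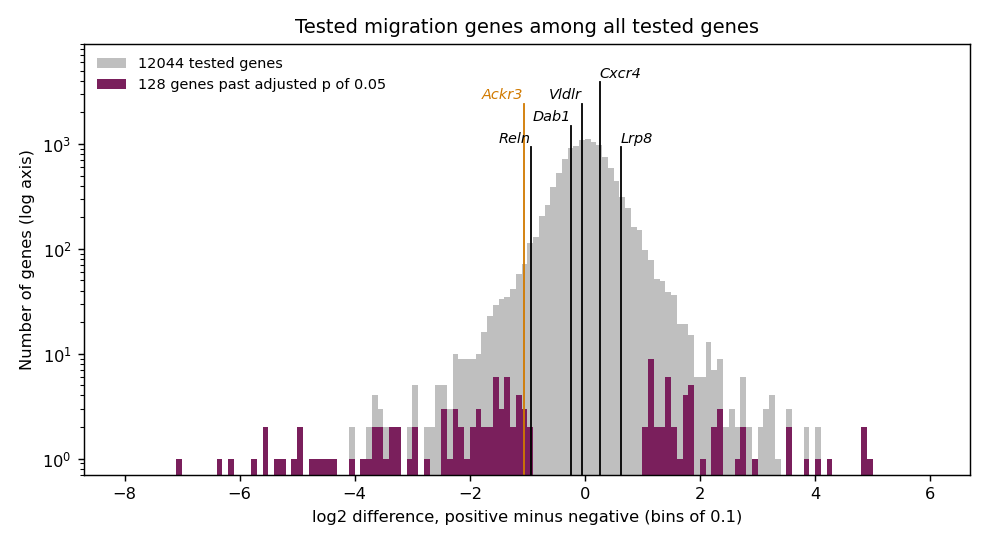
Histogram of the log2 difference, positive minus negative, of 12044 tested genes, with the 128 genes past the threshold in the darker colour and a log axis of gene numbers. Lines mark the 5 tested migration genes and Ackr3. They lie between -1.07 for Ackr3 and 0.63 for Lrp8, inside the main body of genes.

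Values are the deposited signals, on a linear scale in arbitrary units, in the order of replicates 1, 2 and 3. Differences (positive minus negative) are in log2 units, each with its standard error (SE) from limma, and n = 3 arrays per group in the fit over all 6 arrays. The arrays themselves differed. Spike-in controls added at hybridization averaged 2687 and 2768 on positive replicates 1 and 2 and between 4989 and 7651 on the other 4 arrays. This split, called the spike-in batch, has positive arrays alone on its lower side. Within it the comparison is positive replicate 3 against the 3 negative arrays, and values from a fit blocked on the batch rest on that 1 positive array. The SE and p of such a fit measure no spread between positive arrays on the higher side. Without positive replicate 3, group and batch cannot be told apart. Other measures of the arrays, a sign of RNA quality among them, were also lowest on positive replicates 1 and 2. The ratio of 3′ to 5′ Gapdh probe sets was 4.41 and 4.73 on positive replicates 1 and 2 and 5.94 to 9.21 on the other 4 arrays. Signals of 18S ribosomal RNA were 3713 and 3696 against 7241 to 9276. The widest gap in the Gapdh ratio lay elsewhere, between 6.71 on negative replicate 1 and 8.84 on positive replicate 3. As a check of the labels, Lmx1a was above the filter level on none of the 3 negative arrays and averaged 125 on the positive arrays. Neurog2 (Ngn2) averaged 591 and 352, at adjusted p = 0.155. The labels call both groups progenitors. Genes of postmitotic neurons (Tubb3, Dcx, Stmn2 and others, all 11 listed) exceeded the filter level on all 6 arrays. Tubb3 averaged 3583 in positive and 4416 in negative cells.

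Promoters are printed for Reln and Cxcr4, the 2 tested members whose brightest probe set differed most between positive arrays. Each runs from 250 bases before to 50 bases after the start of the gene, 5′ to 3′ on the gene's strand, from RefSeq on GRCm38.p6. Capitals mark matches on either strand to CANNTG, the general E-box of bHLH factors, or to TATAAA, the TATA box. Which factor binds a match was not tested. The Reln window is chr5:22344656-22344955 on the minus strand and the Cxcr4 window chr1:128592250-128592549 on the minus strand.
Reln: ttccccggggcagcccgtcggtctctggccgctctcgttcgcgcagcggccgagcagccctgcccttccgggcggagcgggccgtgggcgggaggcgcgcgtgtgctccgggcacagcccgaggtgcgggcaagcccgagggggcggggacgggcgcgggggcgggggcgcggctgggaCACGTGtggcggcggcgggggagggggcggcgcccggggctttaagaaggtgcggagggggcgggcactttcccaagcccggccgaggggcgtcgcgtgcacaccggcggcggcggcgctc
Cxcr4: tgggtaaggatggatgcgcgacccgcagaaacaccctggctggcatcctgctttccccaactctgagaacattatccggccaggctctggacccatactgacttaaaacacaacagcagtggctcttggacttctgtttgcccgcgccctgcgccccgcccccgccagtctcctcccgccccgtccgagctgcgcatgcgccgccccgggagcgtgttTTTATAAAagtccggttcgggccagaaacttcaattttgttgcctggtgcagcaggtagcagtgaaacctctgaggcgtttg

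The Reln window was 80.7% G and C with 47 CG pairs and held 1 E-box. The Cxcr4 window was 59.3% G and C with 20 CG pairs, held 0 E-boxes, and held 2 overlapping matches to TATAAA, 1 on each strand. Over all 32851 promoter windows the median was 7 CG pairs, 72.3% held an E-box and 13.6% held TATAAA. All 6 genes had an entry, with 10 windows in all since Dab1, Vldlr and Lrp8 have several starts. An E-box was in 6 of these 10, and the LIM homeodomain core TAATTA was in 1, of Vldlr, against 5.29% of all windows. The Nr4a2 site AAAGGTCA and the forkhead site TGTTTAC were in 0 of the 10, against 1.51% and 3.65% of all windows.

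**Figure D2:**
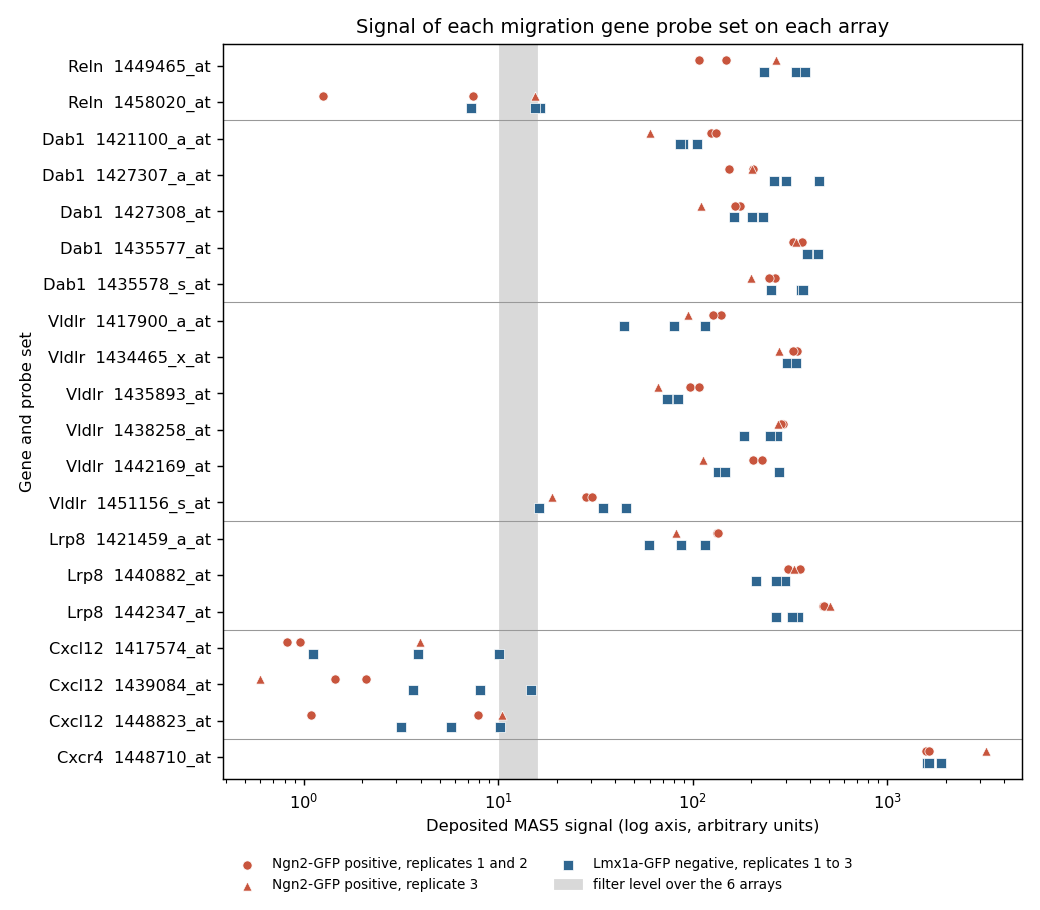
Deposited signal of each of the 20 probe sets (rows, by gene) on each of the 6 arrays, on a log axis, with positive replicates 1 and 2 as circles, positive replicate 3 as triangles and the negative arrays as squares. The grey band is the filter level, 10.2 to 15.8 over the arrays. The 3 Cxcl12 probe sets lie in or below it, and the Cxcr4 triangle, at 3223, lies apart from the other 5 arrays.

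The ligand Reelin was measured by 2 probe sets. On 1449465_at, annotated to a RefSeq transcript, signals were 148, 108 and 267 on the positive arrays and 341, 377 and 232 on the negative arrays. Positive replicates 1 and 2 lay below every negative array, while positive replicate 3 lay between negative replicates 3 and 1, so the groups overlapped. Reln averaged 162 in positive and 310 in negative cells, a difference of -0.94 (SE 0.32, 95% interval -1.62 to -0.25, unadjusted p = 0.0114, limma adjusted p = 0.281). This is 1.91-fold lower in positive cells, with an interval that reaches from 1.19-fold to 3.08-fold.

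The difference in Reln depended on positive replicate 3, whose signal was 2.11 times the average of the other positive arrays. Blocked on the spike-in batch, Reln differed by -0.22 (SE 0.35, adjusted p = 0.996), with an interval of -1.0 to 0.57. Without positive replicate 3, the fit in which group and batch coincide, it passed the threshold at -1.30 (SE 0.28, adjusted p = 0.0317), where 2.81% of tested genes passed in this direction. The batch moves with the Reln signal, as do the Gapdh ratio (8.84 on positive replicate 3) and the 18S signal (8298 there), and their part in the Reln difference was not tested. The second Reln probe set, 1458020_at, was dim, at 7.39, 1.26 and 15.4 on the positive and 16.5, 15.5 and 7.27 on the negative arrays. It exceeded the filter level on 1 positive and 2 negative arrays, and its difference of -1.23 (SE 1.07) had an interval from -3.54 to 1.08.

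In the developing cortex Reelin is made by Cajal-Retzius cells, so 8 genes of these cells were read beside it. Of the 6 tested, 0 passed. Summed over the list, signals were 3633 to 4711 on the positive and 3498 to 3931 on the negative arrays. Most of the sum came from Ebf3, which averaged 2057 in positive and 1892 in negative cells, and Nhlh2, at 1317 and 1124. Trp73, a defining gene of these cells, was under the filter level on all 6 arrays, with group averages of 8.13 and 3.04. Calb2, which dopaminergic neurons also express, averaged 33.1 in positive and 3.21 in negative cells. It exceeded the filter level on 3 positive and 0 negative arrays, so it was tested only through the group where it is high. The summed signals of the groups thus overlapped. In sorted bulk RNA, fewer cells that express a gene and less RNA per cell cannot be told apart.

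The 2 Reelin receptors were measured by 9 probe sets, all tested. For Lrp8 the brightest, 1442347_at, gave 467, 471 and 508 on the positive and 348, 326 and 267 on the negative arrays. All positive arrays lay above all negative ones, and the spread within the positive group was small (SD 0.07 in log2, against 0.20 in the negative group). The difference was 0.63 (SE 0.20, 95% interval 0.20 to 1.06, unadjusted p = 0.00778, limma adjusted p = 0.242), or 1.55-fold higher in positive cells.

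The Lrp8 difference kept its direction in every fit that left out an array. It then ran from 0.52 to 0.71, at adjusted p of 0.177 to 0.652, so it passed in none of these 6 fits. Blocked on the spike-in batch it was 0.70 (SE 0.27, adjusted p = 0.614). The other Lrp8 probe sets also had positive differences. On 1440882_at signals were 356, 308 and 333 against 297, 210 and 269, a difference of 0.37 (SE 0.22) with no overlap of the groups. On 1421459_a_at they were 134, 134 and 82.5 against 116, 87.2 and 59.3, a difference of 0.44 (SE 0.32) with overlap. That last difference was -0.03 when blocked on the batch, so the 3 probe sets shared a sign over all 6 arrays but not within the batch.

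Vldlr, the second receptor, had 6 probe sets with no common direction, 3 above and 3 below 0. Its brightest, 1434465_x_at, gave 343, 328 and 278 on the positive and 335, 305 and 341 on the negative arrays, with the groups intermixed. The difference was -0.05 (SE 0.20, limma adjusted p = 0.951). Its 95% interval of -0.48 to 0.38 reaches from 1.40-fold lower to 1.30-fold higher at this probe set. Blocked on the spike-in batch, a fit that rests on 1 positive array, the difference was -0.23. Probe sets whose names end in _x_at or _s_at can also bind transcripts of other genes.

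The largest Vldlr difference was on 1417900_a_at, at 140, 127 and 94.9 against 115, 44.5 and 80. It was 0.68 (SE 0.35, unadjusted p = 0.0748, limma adjusted p = 0.57), with overlap of the groups. On 1438258_at, which carries no such suffix, the values were 290, 286 and 274 against 271, 184 and 249.5, and all positive arrays lay above all negative ones by a difference of 0.29 (SE 0.23). The other 3 probe sets had intermixed groups, none differing by more than 1 SE. Signals on 1435893_at were 96.8, 108 and 66.0 against 77.8, 73.7 and 83.6, a difference of 0.18 (SE 0.30). Those on 1442169_at were 204, 226 and 112 against 135, 146 and 277, a difference of -0.02 (SE 0.33). The dim 1451156_s_at gave 28.5, 30.2 and 18.9 against 45.3, 34.6 and 16.1, a difference of -0.21 (SE 0.51). The sign given for Vldlr therefore depends on the probe set. It was 0.14 for the mean of its probe sets and 0.29 without probe sets that have a suffix.

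**Figure D3:**
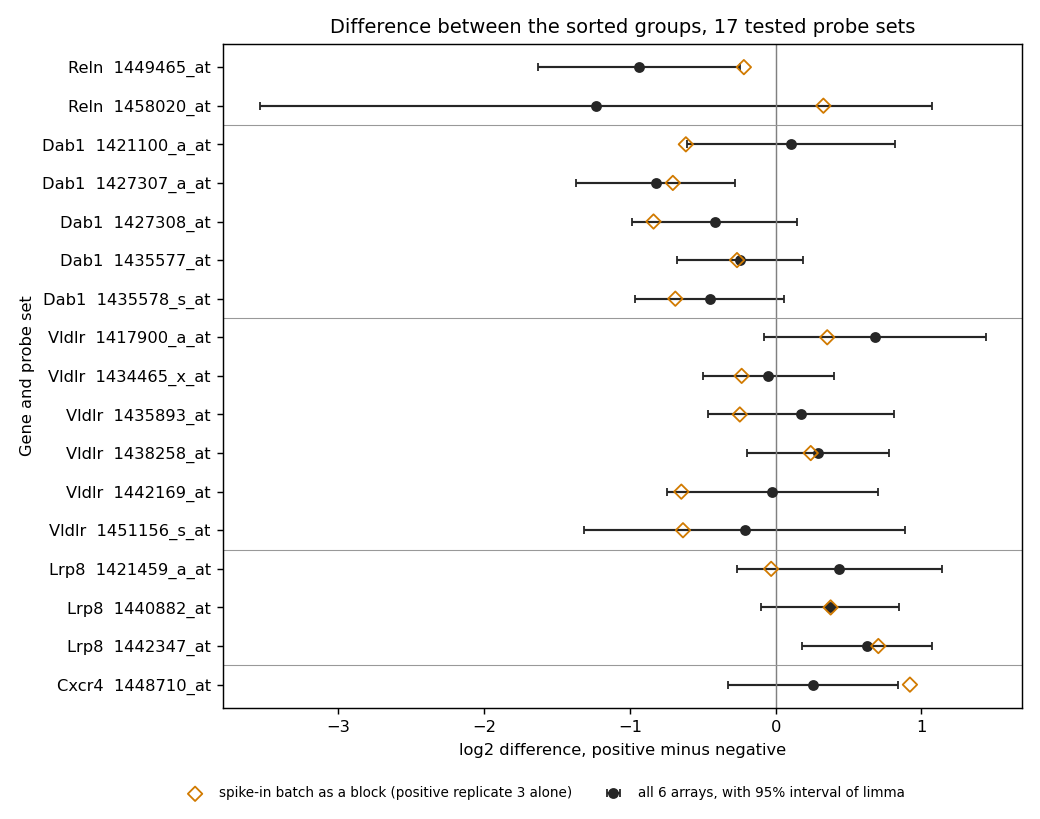
Log2 difference, positive minus negative, of each of the 17 tested probe sets (rows, by gene). Filled points with bars are the fit over all 6 arrays with its 95% interval, and open diamonds are the value in the fit blocked on the spike-in batch, which uses positive replicate 3 alone. The Lrp8 points all lie above 0 and those of Vldlr on both sides, while the diamonds of Reln 1449465_at (-0.22) and Cxcr4 (0.92) lie far from their filled points.

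Dab1, the adaptor that carries the signal into the cell, was measured by 5 probe sets, of which 4 had lower signals in positive cells. They are not independent, since 1427307_a_at and 1427308_at are annotated to the same source sequence, as are 1435577_at and 1435578_s_at. The brightest, 1435577_at, gave 363, 328 and 338 on the positive and 440, 393 and 389 on the negative arrays. All positive arrays lay below all negative ones, but the difference was small, at -0.25 (SE 0.19, adjusted p = 0.663), with an interval of -0.66 to 0.17.

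The Dab1 probe set with the largest difference was 1427307_a_at. Its signals were 154, 204 and 201 against 301, 262 and 446, again with no overlap, and the difference was -0.82 (SE 0.25, unadjusted p = 0.00636, limma adjusted p = 0.296). On 1427308_at signals were 176, 165 and 110.1 against 230.5, 203 and 163, a difference of -0.42 (SE 0.26). On 1435578_s_at they were 264, 247 and 199.9 against 252, 361 and 368, a difference of -0.45 (SE 0.24). The groups overlapped on both, by 1 negative array each. On 1421100_a_at, annotated to a RefSeq transcript, it was 0.11 (SE 0.33), with 125, 132 and 60.5 against 105, 88.7 and 85.6. Blocked on the spike-in batch the Dab1 probe sets all had negative values, from -0.84 to -0.27, with adjusted p of 0.811 at the lowest. Whether the probe sets differ from one another was not tested.

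Cxcl12, the chemokine ligand, was read by 3 probe sets, none of which passed the filter. The filter level, the 40th percentile of each array, lay between 10.2 and 15.8. On 1448823_at signals were 7.91, 1.09 and 10.4 on the positive and 3.17, 5.69 and 10.2 on the negative arrays. On 1417574_at they were 0.957, 0.818 and 3.98 against 3.87, 1.12 and 10.2. On 1439084_at they were 2.10, 1.45 and 0.595 against 3.66, 8.02 and 14.8, with all positive arrays below all negative ones. A single array, negative replicate 3, exceeded its own filter level, on 1439084_at and barely on 1448823_at, so no fold is given.

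Genes of meningeal, pericyte and endothelial cells, candidate sources of Cxcl12 in embryonic brain, were mostly dim too. Of 13 genes of pericytes and meninges, 5 were under the filter level on every array and 5 could be tested, of which 0 passed. Their summed signal was 110 to 175 on the positive and 149 to 163 on the negative arrays. Lum and Foxc1, meningeal genes, exceeded the filter level on no array. Of 12 endothelial genes 9 were under the level on every array, including Pecam1 and Cdh5, and the summed signal was 100 to 121 on the positive and 56.1 to 103 on the negative arrays.

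Cxcr4, the receptor, was bright in both groups on its single probe set, 1448710_at. Signals were 1585, 1639 and 3223 on the positive and 1594, 1639 and 1886 on the negative arrays. Positive replicates 1 and 2 lay at the level of negative replicates 1 and 2, and positive replicate 3 stood above all others. The difference was 0.25 (SE 0.27, adjusted p = 0.761), with an interval of -0.34 to 0.85.

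Positive replicate 3 set the sign for Cxcr4. Its signal was 2.0 times the average of the other positive arrays, and without it the difference was -0.08 (SE 0.16, adjusted p = 0.85), with an interval of -0.42 to 0.27. Blocked on the spike-in batch the difference was 0.92 (SE 0.20, unadjusted p = 0.000661, limma adjusted p = 0.137), where 6.43% of tested genes had an unadjusted p under 0.05 and 0.282% passed. The batch, the Gapdh ratio and the 18S signal move with this signal among the positive arrays too. The negative arrays were above positive replicates 1 and 2 on all 3 measures and had Cxcr4 at 1594, 1639 and 1886. The part of these measures was not tested. Of the 17 tested probe sets of all members, positive replicate 3 was above both other positive arrays on 4 and below both on 10. The shares over all tested probe sets were 31.1% and 46.0%.

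Blood cells and macrophages also express Cxcr4, and the summed signals of genes of those cells were higher on the negative arrays. The summed signal of 8 erythroid genes was 316 to 623 on the positive and 7511 to 14943 on the negative arrays. Most of it came from Hbb-y, with 9974 of 12884 on negative replicate 1, while Klf1 and Gata1 exceeded the filter level on no array. Hbb-y, an embryonic globin that exceeded the filter level on all 6 arrays, averaged 373 and 9337 (limma adjusted p = 4.83e-06). It was named after its values were seen, and its probe set may also bind transcripts of other globins. The summed signal of 12 macrophage genes was 54.9 to 94.0 on the positive and 427 to 848 on the negative arrays. Not every gene of the list followed, since Cd68 averaged 27.4 in positive and 26.1 in negative cells. Csf1r, the receptor that macrophages need to survive, averaged 2.73 in positive and 199 in negative cells. It exceeded the filter level on 0 positive and all 3 negative arrays, as did Aif1 and Tyrobp, so these genes were tested only through the group where they are high and no count of calls is given for the list. Beside these markers, Cxcr4 signals were 1585, 1639 and 3223 on the positive and 1594, 1639 and 1886 on the negative arrays. The part of blood cells and macrophages in the Cxcr4 signal of negative arrays was not tested.

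**Figure D4:**
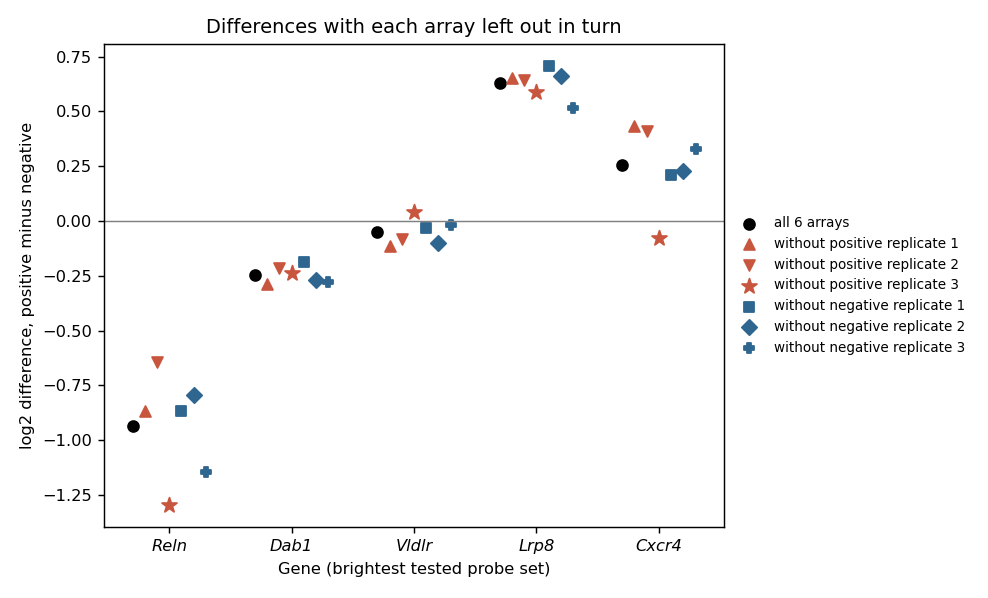
Log2 difference, positive minus negative, of the 5 tested genes over all 6 arrays (black circles) and with each array left out in turn. Without positive replicate 3 (stars) Reln moved to -1.30 and Cxcr4 to -0.08, while Lrp8 stayed between 0.52 and 0.71 and Dab1 between -0.29 and -0.19 in the 6 fits.

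Other genes of both pathways gave no call over all 6 arrays. Of 36 Reelin pathway genes, all tested, 0 passed with limma, 3 were higher and 2 lower at an unadjusted p under 0.05, against 5.68% higher and 5.08% lower over all tested genes. Positive values were found for 12 of the 36, or 33.3%, against 52.3% of all tested genes. Their median was -0.12, against 0.03 over all tested genes. The 2 with the lowest p were Lrp8 and Reln themselves. The others at that level were Crkl, an adaptor that binds phosphorylated Dab1 (0.65, SE 0.26, adjusted p = 0.375), the microtubule protein Mapt (0.48, SE 0.20, adjusted p = 0.397) and cofilin, Cfl1, which severs actin filaments (-0.74, SE 0.33, adjusted p = 0.453). These 3 were named after their values were seen.

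The count for the Reelin pathway depended on positive replicate 3. Without it 3 of the genes were lower, in a fit where 2.81% of all tested genes were lower and 417 passed in all, against 128 over the 6 arrays. They were Reln, Cfl1 (-1.18, adjusted p = 0.00217) and Socs7, part of the complex that degrades active Dab1 (-0.80, adjusted p = 0.0468). Blocked on the spike-in batch 0 passed and the median was -0.0046.

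Of 26 Cxcl12 pathway genes 21 were analysed here and 18 were tested. None passed with limma, and 1 was lower at an unadjusted p under 0.05, against 5.08% of all tested genes. Positive values were found for 6 of the 18, or 33.3%, against 52.3% of all tested genes, and the median was -0.16, against 0.03. The 1 gene was Ackr3, the clearing receptor for Cxcl12. Its signals were 275, 203 and 185 on the positive and 339, 424 and 660 on the negative arrays, so that all positive arrays lay below all negative ones. The difference was -1.07 (SE 0.27, adjusted p = 0.106), larger over all 6 arrays than that of any tested member, and was -1.30 (adjusted p = 0.353) when blocked on the spike-in batch and -0.95 (adjusted p = 0.114) without positive replicate 3. The next gene of the list was Grk6, a kinase of G protein-coupled receptors (-0.39, SE 0.22, adjusted p = 0.548).

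Among 34 other genes of neuronal migration and guidance, 33 were tested and 3 were higher in positive cells, against 0.423% of all tested genes, with a median of 0.05. They exceeded the filter level on all 6 arrays and were the adhesion molecule Alcam (1.70, SE 0.23, adjusted p = 0.00303), the semaphorin receptor Nrp2 (1.44, SE 0.20, adjusted p = 0.00321) and the guidance cue Slit2 (1.46, SE 0.25, adjusted p = 0.0111). Blocked on the spike-in batch, a fit that rests on 1 positive array, the differences were 1.87 for Alcam, 1.43 for Nrp2 and 1.41 for Slit2. Without positive replicate 3 these 3 were higher and Tuba1a, Ncam1 and Tubb3 were lower, where 0.741% of all tested genes were higher and 2.81% lower. Without positive replicate 2 the count was 2.

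Genes whose profile over the 6 arrays was nearest to a member were found by the root mean square difference of centred log2 signals. For Reln they were Eif4g2 (0.096) and Atf4 (0.112), against an SD of 0.70 for Reln itself over the 6 arrays. Eif4g2 gave 2300, 1713 and 4789 on the positive and 5020, 6216 and 4046 on the negative arrays, again high on positive replicate 3. For Cxcr4 they were Ncapd3 (0.079) and Ctu2 (0.087), against an SD of 0.40. Ctu2 gave 640, 703 and 1350 against 616, 679 and 888, the same single high array. For Lrp8 they were Mpped2 (0.058) and Coq7 (0.065), against an SD of 0.37. Dab1 and Vldlr varied little over the arrays (SD 0.16 and 0.12), and their nearest genes were Disp1 (0.035) and Ube4b (0.039), and Srsf11 (0.063) and Znhit2 (0.068).

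Further cell type lists describe the groups. Of 9 tested dopaminergic neuron genes 6 were higher in positive cells, against 0.423% of all tested genes, a direction favoured by the sort gates. Of these 6, 4 exceeded the filter level on all 6 arrays. Th exceeded it on 1 negative array. Slc6a3 exceeded it on 0 negative arrays, so it was tested only through the group where it is high. Summed over the list, signals were 5046 to 6683 on the positive and 2362 to 2603 on the negative arrays. Of 11 radial glia genes 2 were lower, against 0.639% of all tested genes, with sums of 5918 to 8750 and 9494 to 11780. They were Fabp7, close to the threshold (-1.18, limma adjusted p = 0.0494), and Pax6 (-2.22, limma adjusted p = 0.00698). Blocked on the spike-in batch, which leaves 1 positive array, they were at -0.62 and -3.11. The median of the radial glia list then went from -0.33 to -0.15, and that of the dopaminergic list from 1.36 to 1.52. Of 11 general neuronal genes 0 passed, with sums of 15242 to 22552 and 18036 to 22898. On that last list positive replicates 1 and 2 lay below every negative array and positive replicate 3 among them, as for Reln. This order was not particular to neuronal genes. The sums of the Reelin pathway list (24922, 25378 and 34376 against 31498, 35759 and 31880) and of the other migration list had it too. On the Cxcl12 pathway list replicates 1 and 2 were again lowest, but replicate 3 lay above every negative array.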

How the data were processed

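Biotin-labelled cRNA from sorted cells was measured on 1 array per sample. The intensity values deposited by the authors are, per the submitters' processing notes, MAS5 signals made in R 2.14.2. What limma, named there too, did is not stated. They are linear, and each array has a 2% trimmed mean of 100, so differences in total RNA are not measured. Of 45037 probe sets, 34945 had 1 symbol in the platform annotation, 932 several and 9160 none listed. Log2 was taken after raising signals under 1 to 1. A probe set was tested if above its array's 40th percentile on at least 3 arrays, and a gene by its brightest tested probe set. The comparison used limma 3.58.1 under R 4.3.3 (eBayes with trend, two-sided, Benjamini-Hochberg over all tested genes, or over all tested probe sets for probe set values). The code was also run on simulated data with independent noise for each gene. Those data held no shift shared by arrays, so the run does not cover the spike-in split. Group averages are geometric means and intervals are unadjusted 95% intervals. Arrays are biological replicates per the series' design text, and their number limits precision.

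Members, lists, the spike-in batch and alternatives were chosen with earlier results of these data known. Named were all member probe sets, genes of 3 pathway lists past the threshold (or the 2 of lowest p), and 2 nearest profiles per tested member. Some genes of the lists are not analysed here. The promoter motifs, and the promoters printed, were chosen after the signals were seen. Alternatives were quantile normalization, median centring, no filter, a 60th percentile filter, log2 of value plus 32, no trend, other choices of probe set, the replicate number or spike-in batch as a block, that batch's higher side alone, and leaving out each array. Figures used matplotlib 3.10.9 in Python 3.11.15.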

Additional observations from a re-analysis of the deposited data

How the results depend on the processing

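Over 85 refits of the 5 tested genes under these alternatives, 80 kept direction and side of the threshold, 1 passed it (Reln without positive replicate 3) and 4 changed sign, for Vldlr and Cxcr4. Leaving out 1 array gave -1.30 to -0.64 for Reln, -0.11 to 0.040 for Vldlr and -0.078 to 0.43 for Cxcr4, and 0 to 1 members passed, by gene or by probe set. Vldlr was 0.14 as the mean of its probe sets and 0.29 without suffixed ones. The 128 genes called became 19 with no filter, 42 without a trend, 34 when blocked on the spike-in batch, 40 within its higher side and 57 to 417 without 1 array. The Reelin pathway count was 0 to 3 without 1 array. The other migration count, 3, became 1 with no filter, 0 without a trend, 1 when blocked on the batch, 0 within its higher side and 2 to 6 without 1 array. Blocked on the batch, and within its higher side, Dab1 1421100_a_at was at -0.62, Lrp8 1421459_a_at at -0.031, Vldlr 1435893_at at -0.25 and Reln 1458020_at at 0.33. Without 1 array Dab1 1421100_a_at ran from -0.095 to 0.47, Vldlr 1434465_x_at from -0.11 to 0.040, Vldlr 1442169_at from -0.22 to 0.30 and Vldlr 1451156_s_at from -0.64 to 0.10, Cxcr4 1448710_at from -0.078 to 0.43 and Reln 1449465_at from -1.30 to -0.64. Both batch fits rest on 1 positive array, and each fit without an array has fewer samples. The cause of the other shifts was not tested.

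With the replicate number as a block, 127 genes passed and Reln was at adjusted p = 0.295. Deviations of same-numbered arrays correlated at 0.14, -0.10 and 0.03, and 2 of 6 arrays correlated best with their own number, so the numbers were not taken to pair the samples.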
